A study of Mus musculus with 6 samples.

Results

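The genes described here encode the enzymes that cut the extracellular matrix outside the cell and the proteins that restrain them. They are the matrix metalloproteinases (gene names Mmp), the ADAMTS proteases (Adamts), the ADAMTS-like proteins (Adamtsl) and the tissue inhibitors of metalloproteinases (Timp). Members were taken by gene name from the deposited table of 41064 genes, and 49 genes matched, of which 21 are Mmp, 19 Adamts, 5 Adamtsl and 4 Timp genes. The match went by name alone, though earlier results of these data were known when the part was chosen. A filter on low counts left 45 of the 49 for testing among 20132 tested genes.

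The study gave angiotensin II, a peptide hormone that raises blood pressure and provokes remodelling of the vessel wall, to mice of both groups. Aorta RNA was sequenced in 3 libraries of genotype WT, called wild type or WT below, and 3 of genotype JOSD2 KO, treated with Ang II alike, so no untreated level enters any value below. The labels give no strain, age, sex, dose or duration and do not say how the knockout was made or in which cells it acts. The series title places the deubiquitinase JOSD2 and SMAD7, which restrains signals from TGF-beta receptors, in angiotensin II-induced vascular remodelling.

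Matrix metalloproteinases are secreted or membrane-bound zinc proteases made as inactive precursors, and between them they can cut collagens, elastin, basement membrane and many other proteins. ADAMTS proteases carry thrombospondin repeats that hold them in the matrix, where they trim proteoglycans such as versican and aggrecan or process procollagen. ADAMTS-like proteins share those repeats but lack the protease domain, and several bind fibrillin microfibrils. TIMPs block the active site of metalloproteinases, and Timp3, which binds to the matrix itself, also inhibits several ADAM and ADAMTS enzymes. In the aorta these genes are expressed by smooth muscle, adventitial fibroblasts, endothelium and macrophages.

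Total deposited counts ran from 63612353 to 75886761 per library. A count of 4 was held by 1091 to 1137 genes in each library and a count of 3 by only 792 to 867, so about 4 counts were taken to stand for 1 read pair, which no source states. Levels are given as TMM-scaled FPKM, which are the authors' fragments per kilobase with the library total replaced by the size that edgeR's TMM method estimates, and can be compared between genes and libraries. This choice matters because mitochondrial transcripts took 36.2% of counts in WT and 23.8% to 23.9% in the labelled knockouts. Scaling by library totals moves the median log2 fold change over all tested genes up by 0.41, and by 0.03 once mitochondrial genes and nuclear copies of them are left out. Each fold change sets the labelled knockouts over WT on the TMM scale, and a member whose direction turns with library totals is named as such. Josd2, the targeted gene, stood at 9.58, 9.94 and 9.42 TMM-scaled FPKM in WT and 6.95, 6.39 and 6.86 in the labelled knockouts (log2 fold change -0.52, edgeR adjusted p = 0.000244; -0.11 with library totals, adjusted p = 0.231). Its transcript was thus still present, so these samples are called libraries labelled knockout and every direction rests on that label. The labels do not say which animal gave which library, so p-values here measure only how far these samples spread, and that spread may be technical. Within groups the coefficient of variation of the 27 members with a mean deposited FPKM of at least 1 ran from 1.02% to 23.6% (the larger value of both groups). Because these are bulk libraries labelled aorta, 3 things cannot be told apart in any value below. They are fewer cells of a type, less RNA per cell and a different stretch or surrounding of the vessel.

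Of the 45 tested members, 12 rose and 14 fell in the libraries labelled knockout and 19 did not pass (edgeR quasi-likelihood test, adjusted p under 0.05 over all tested genes). That is 57.8% of the tested members, against a background of 24.7% of all tested genes (13.2% higher, 11.5% lower). Abundant genes pass more often, and of the 27 members with a mean deposited FPKM of at least 1, 22 passed (81.5%, 11 in each direction), against 34.8% of the 11352 genes at that level (19.4% higher, 15.5% lower). The median log2 fold change of the tested members was 0.0025, beside -0.0031 over all tested genes. Of the 45 tested members, 8 passed and changed at least 2-fold, against 1200 of all 20132 tested genes (5.96%). The genes that passed numbered 26 among the members and 4981 among all tested genes. Groups did not overlap for 31 of the 45, against 41.2% of all tested genes. With library totals 21 members were higher and 9 lower (70.0% of calls higher, against 46.2% on the TMM scale). Over all tested genes 46.8% were higher and 3.81% lower with library totals. There 92.5% of calls were higher, against 53.4% on the TMM scale. By family, 2 Mmp genes rose and 4 fell of 19 tested, 4 Adamts genes rose and 7 fell of 17, all 5 Adamtsl genes rose, and 1 Timp gene rose and 3 fell of 4. With library totals the counts were 7 higher and 3 lower Mmp genes, 7 and 5 Adamts genes, 5 and 0 Adamtsl genes, and 2 and 1 Timp genes.

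**Figure D1:**
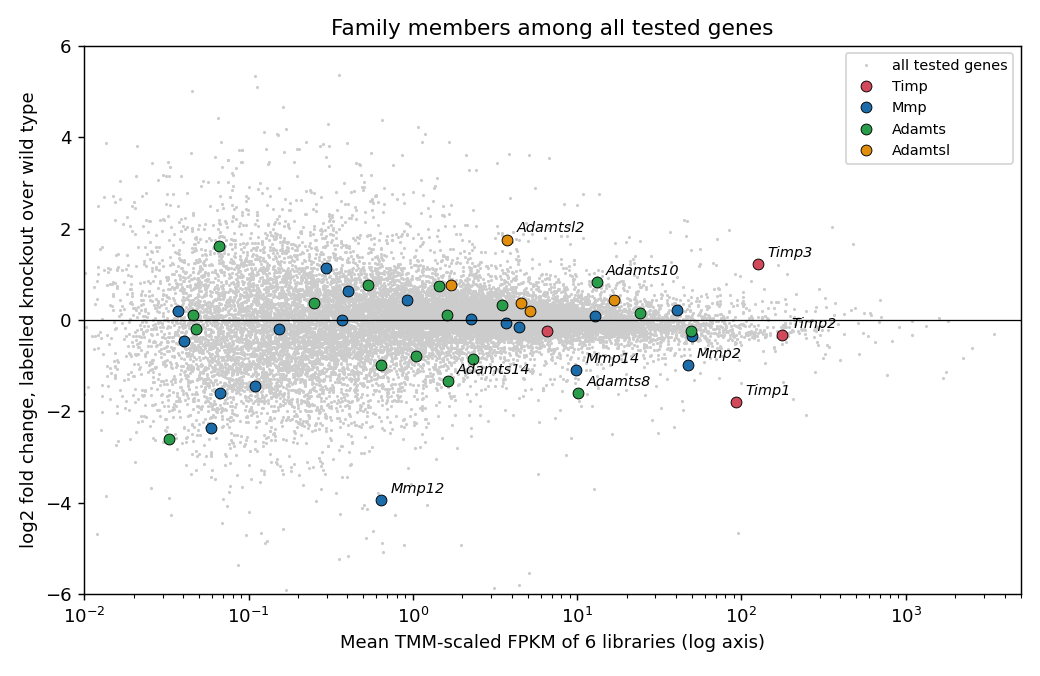
Mean level of 6 libraries (TMM-scaled FPKM, log axis) against the log2 fold change of labelled knockout over wild type, for all tested genes (grey, those within the axes) and the 45 tested members, coloured by family. Timp3 lies at 1.22 and Timp1 at -1.80 among abundant genes, and Mmp12 at -3.93.

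Timp2, Timp1 and Timp3 were the most abundant members in wild type, and Timp1 and Timp3 moved in opposite directions. Timp1, the secreted inhibitor whose gene responds to growth factors and cytokines, stood at 142, 148 and 141 TMM-scaled FPKM in the 3 wild type libraries and at 39.5, 43.8 and 40.5 in the 3 labelled knockouts. The groups lay far apart, with every labelled knockout below every wild type library. The gene, on chromosome X from 20870166 to 20874735, fell 3.49-fold (edgeR log2 fold change -1.80 with SE 0.048, adjusted p = 3.8e-10). Timp3, the inhibitor that stays bound to the matrix, stood at 76.99, 76.5 and 75.5 in WT and at 179, 178 and 176 in the labelled knockouts. Here every labelled knockout lay above every wild type library. The gene, on chromosome 10 from 86300372 to 86349506, rose 2.33-fold (1.22, SE 0.0137, edgeR adjusted p = 1.59e-13). Exons of Syn3 on the opposite strand overlap 21.3% of the Timp3 exon bases and no strand setting is stated. Syn3 itself stood at 0.2, 0.198 and 0.0846 TMM-scaled FPKM in WT and 0.102, 0.402 and 0.188 in the labelled knockouts, and its part in the Timp3 values was not tested.

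Timp2, which inhibits MMP2 and also takes part in its activation on the cell surface, was the most abundant member in wild type, at 193, 201 and 198. The labelled knockouts had 158, 156 and 156. The groups did not overlap. On the TMM scale Timp2 fell by 0.33 on the log2 scale (edgeR adjusted p = 1.59e-07), but the direction turns with library totals (0.08, adjusted p = 0.00324). Timp4, an inhibitor with a narrower tissue distribution, went from 6.84, 7.91 and 6.64 to 6.12, 5.89 and 6.22, and it too turns, from -0.23 (edgeR adjusted p = 0.0346) to 0.18 with library totals (adjusted p = 0.0512). Its call was lost without wild type 2 or without any 1 of the labelled knockouts (edgeR adjusted p of 0.113, 0.0935, 0.132 and 0.0771; 0.0042 to 0.48 over 18 alternatives).

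Shares within a family do not depend on how libraries are scaled. Of the summed FPKM of the 4 Timp genes, Timp3 held 18.4%, 17.6% and 17.9% in the wild type libraries and 46.9%, 46.4% and 46.5% in the labelled knockouts. Timp1 held 33.96%, 34.2% and 33.5% in WT and 10.3%, 11.4% and 10.7% in the labelled knockouts. Timp3 thus went from the third to the first place in the family and Timp1 from the second to the third. Timp2 went from 46.5% to 41.03% and Timp4 from 1.68% to 1.59%. The ratio of Timp3 to Timp1 was 0.53 ± 0.0131 in WT and 4.32 ± 0.231 in the labelled knockouts (SD, n = 3 libraries each). Between 3 libraries and 3, a two-sided exact permutation test cannot go below p = 0.1, so the ratios, shares and sums here are given as descriptions. The summed Timp level was 425 ± 7.97 in WT and 382 ± 2.78 in the labelled knockouts on the TMM scale (log2 ratio -0.15), and the direction of that sum turns on the authors' own FPKM scale (log2 ratio 0.26).

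**Figure D2:**
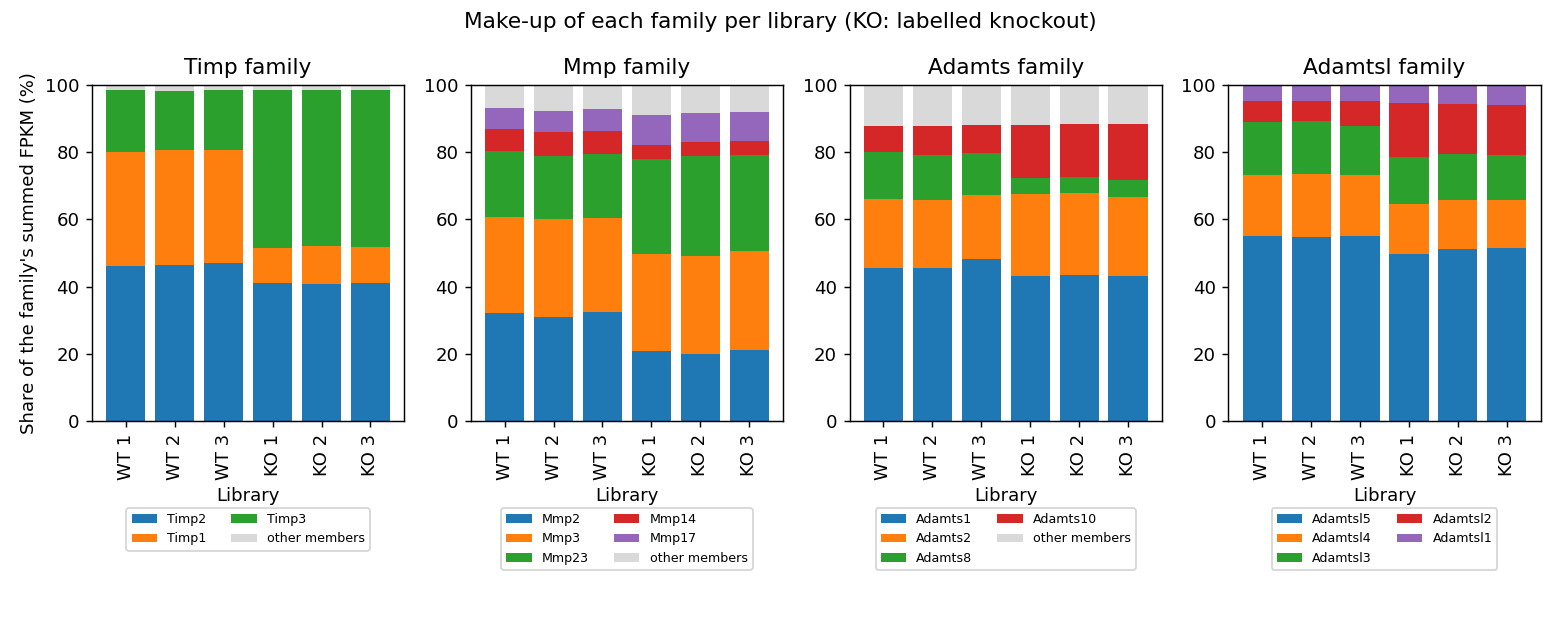
Share of each family's summed FPKM (y axis, %) held by its members in each of the 6 libraries (x axis), for members with a mean share of at least 4% in a group, with the rest in grey. The share of Timp1 shrinks and that of Timp3 grows in the labelled knockouts, Mmp2 shrinks while Mmp23 grows, and Adamts8 shrinks while Adamts10 grows.

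Both gelatinase genes and the membrane protease that activates one of them were measured. Mmp2, which encodes the gelatinase that cuts denatured collagen and basement membrane collagen and is made widely by mesenchymal cells, stood at 63.5, 60.8 and 63.4 TMM-scaled FPKM in WT and 31.5, 30.6 and 32.3 in the labelled knockouts. No library of either group came near the other group. Its fall was 1.99-fold (-0.99, SE 0.0328, edgeR adjusted p = 2.75e-09; chromosome 8 from 92827291 to 92853420). Mmp14, the membrane-type protease that activates the MMP2 precursor and cuts fibrillar collagen itself, went from 12.99, 14.2 and 13.3 to 6.25, 6.43 and 6.26. It fell 2.14-fold (-1.10, SE 0.0484, edgeR adjusted p = 3.43e-08). The ratio of Mmp14 to Mmp2 was 0.216 ± 0.0157 in WT and 0.201 ± 0.00827 in the labelled knockouts, with ranges that overlap. Mmp9, the gelatinase of leukocytes, was low, at 0.25, 0.553 and 0.302 in WT and 0.448, 0.32 and 0.343 in the labelled knockouts, with overlapping groups. Mmp9 did not pass (log2 fold change 0.0025, 95% interval -0.77 to 0.78, edgeR adjusted p = 0.997), and an interval this wide leaves its change unmeasured in size and sign.

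Among the other membrane-type genes, Mmp17, which encodes a glycosylphosphatidylinositol-anchored enzyme found in vascular smooth muscle, stood at 12.4, 12.1 and 13.2 in WT and 13.6, 13.1 and 13.2 in the labelled knockouts. It did not pass on the TMM scale (0.09, edgeR adjusted p = 0.167) and passed upward with library totals (0.50, adjusted p = 3.46e-06; 3.46e-06 to 0.365 over 18 alternatives). Mmp16, a transmembrane enzyme related to Mmp14, rose from 0.364, 0.321 and 0.26 to 0.465, 0.546 and 0.451 (0.63, SE 0.192, edgeR adjusted p = 0.0353). The rise of Mmp16 lost its call without wild type 2 or 3 or any 1 of the labelled knockouts (edgeR adjusted p of 0.0651 to 0.139; 0.000907 to 0.139 over 17 alternatives). Mmp15, another transmembrane enzyme, stood at 0.834, 0.685 and 0.811 in WT and 0.974, 0.98 and 1.24 in the labelled knockouts without overlap, and missed the threshold (0.45, edgeR adjusted p = 0.0707). It passed upward in 5 of 17 alternatives, with library totals among them (0.86, adjusted p = 0.00115; 0.00115 to 0.261 over the 17). Mmp25, a leukocyte enzyme, had 25, 25 and 66 counts in WT and 19, 20 and 14 in the labelled knockouts (edgeR adjusted p = 0.0971; 0.0334 to 0.385 over 16 alternatives, of which DESeq2 called it lower), and Mmp24 at most 26 counts in a library. Thus 1 of the 6 membrane-type genes rose and 1 fell (33.3% called, against 24.7% of all tested genes). With library totals 3 rose and 1 fell, where 46.8% of all tested genes were higher and 3.81% lower.

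The stromelysin Mmp3, which cuts proteoglycans and activates other metalloproteinases, stood next to Mmp2 among the Mmp genes in wild type and above it in the labelled knockouts, with 55.9, 56.8 and 55.4 TMM-scaled FPKM in WT and 43.7, 44.3 and 44.8 in the labelled knockouts. On the TMM scale it fell by 0.34 on the log2 scale (edgeR adjusted p = 3.46e-05), and with library totals its direction turns (0.07, adjusted p = 0.125). As a share of all Mmp FPKM it was 28.5% in WT and 29.1% in the labelled knockouts, whereas Mmp2 went from 31.9% to 20.7%. Mmp11, named stromelysin-3, which is activated by furin inside the cell, stood at 3.71, 4.1 and 3.6 in WT and 3.65, 3.52 and 3.7 in the labelled knockouts and did not pass (-0.07, edgeR adjusted p = 0.674). Its direction turns and its change passes with library totals (0.34, adjusted p = 0.0168; 0.00851 to 0.967 over 18 alternatives). Mmp23, which encodes a membrane-anchored enzyme with an unusual domain make-up, was the third most abundant of the family in wild type. It went from 38.8, 36.8 and 37.04 to 42.8, 45.7 and 43.3 and rose by 0.23 (SE 0.0406, edgeR adjusted p = 0.00179). Its share of Mmp FPKM went from 19.1% to 28.9%. Mmp19 (wild type 4.5, 5.1 and 4.35, labelled knockouts 4.74, 4 and 3.81) and Mmp28 (wild type 1.62, 2.48 and 2.58, labelled knockouts 2.28, 2.36 and 2.17) had overlapping groups and did not pass, with edgeR adjusted p of 0.345 and 0.931. Mmp28 passed upward with library totals (0.44, adjusted p = 0.0469; 0.0469 to 0.997 over 18 alternatives). Genes on the opposite strand overlap 22.3% of the exon bases of Mmp19 (Tmem198b), 12% of those of Mmp28 (1700020L24Rik) and 5.58% of those of Mmp11 (Chchd10), so part of their counts may belong to those genes.

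Mmp12, the metalloelastase of macrophages, had the largest fold change of all 45 tested members. It stood at 1.41, 0.974 and 1.25 TMM-scaled FPKM in wild type, from 667, 474 and 686 counts, and at 0.08, 0.0524 and 0.101 in the labelled knockouts, from 56, 40 and 73 counts. No library came near the other group. Mmp12 fell 15.3-fold (-3.93, SE 0.256, edgeR adjusted p = 8.28e-07; chromosome 9 from 7344381 to 7369499). Of 12 macrophage marker genes 10 fell, 1 rose and 1 did not pass, with a median log2 fold change of -0.83, none was at 0 in all libraries, and their summed level was 469 to 487 in WT and 219 to 226 in the labelled knockouts. Their part in the fall of Mmp12 was not tested. Among these markers the log2 fold changes ran from -1.48 (Trem2) and -1.36 (Lyz2) to 0.66 (Cd163, the one that rose). With library totals 8 of the 12 were lower and 2 higher, and Mmp12 stayed lower (-3.52, edgeR adjusted p = 1.09e-06).

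Mmp12 lies in a cluster of 8 Mmp genes of the deposited table within 427.1 kb of chromosome 9 (7272514 to 7699585). In the order Mmp13, Mmp12, Mmp3, Mmp10, Mmp8, Mmp27, Mmp20 and Mmp7, each is at most 76.3 kb from the next. Of the 6 that were tested, Mmp12 and Mmp3 fell on the TMM scale (Mmp3 turns with library totals) and 4 did not pass. Mmp13, a collagenase 61.0 kb from Mmp12, had 46, 29 and 27 counts in WT and 133, 122 and 71 in the labelled knockouts. Those groups did not overlap, but Mmp13 missed the threshold (1.15, SE 0.424, edgeR adjusted p = 0.0743) on the TMM scale. It passed upward in 6 of 17 alternatives, among them library totals (1.56, adjusted p = 0.00939), DESeq2 (adjusted p = 0.0265) and edgeR without wild type 1 (adjusted p = 0.0433; 0.00939 to 0.247 over the 17). Mmp8, the collagenase of neutrophils, had 20, 16 and 15 counts in WT and 0, 4 and 10 in the labelled knockouts (edgeR adjusted p = 0.183; 0.0487 to 0.395 over 16 alternatives, of which limma on log2(FPKM + 0.1) called it lower). These are about 1 to 5 read pairs where any were counted. Of 12 neutrophil markers 8 were tested and 0 passed by edgeR, 1 was under an unadjusted p of 0.05 (S100a9), 1 passed by DESeq2, 2 passed upward with library totals, and Ly6g was at 0 in all libraries. Mmp10, with 22 counts in wild type 2 and at most 9 elsewhere, was not tested. Mmp7, the matrilysin of epithelia, had 0 counts in all 6 libraries, which allows up to 3 read pairs, or 12 counts, per library (0.137 to 0.218 CPM on the TMM scale, a limit for counting error only). Mmp27 and Mmp20 had at most 48 counts.

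**Figure D3:**
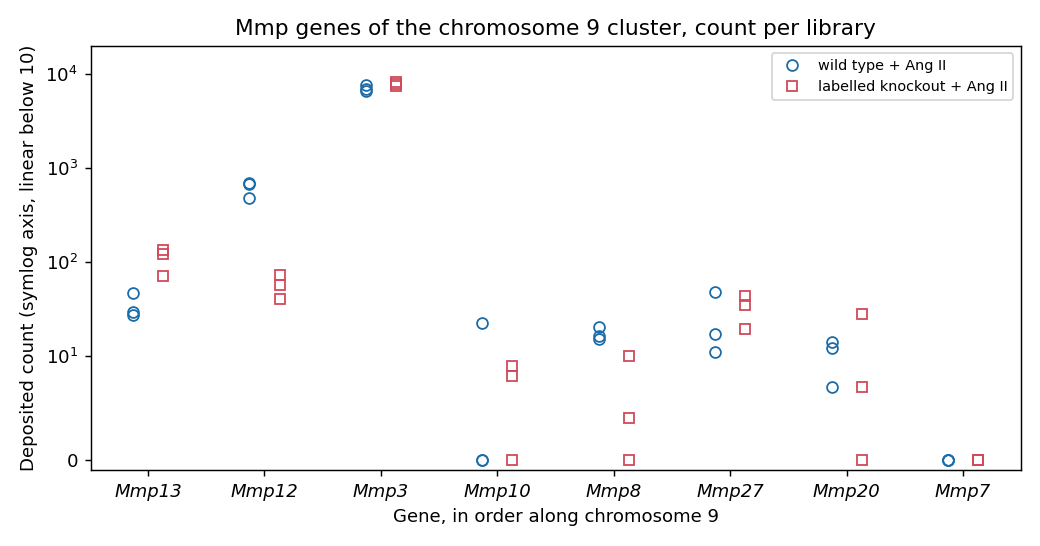
Deposited count per library (y axis, symlog, linear below 10) of the 8 Mmp genes of the chromosome 9 cluster, in genomic order, for wild type (circles) and labelled knockouts (squares). Mmp12 is lower in every labelled knockout, Mmp13 is higher in every labelled knockout, and Mmp3 counts are unscaled.

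The promoters of these neighbours are printed because they lie side by side and their values differ. Many Mmp promoters are known to carry a site for AP-1, the Fos-Jun factor, near the start of transcription. RefSeq's promoter table (GRCm38.p6) matched 34 of the 49 members with 37 windows, and the 250 bases before each start were searched on both strands for the AP-1 heptamer TGACTCA, which reads TGAGTCA on the other strand, and on the gene's strand for TATAAA. The heptamer was found in 4.46% of all 32851 windows and in 5 of the 37 member windows, those of Mmp3, Mmp7, Mmp10, Mmp12 and Mmp13, all in the chromosome 9 cluster. Capitals below mark the heptamer and TATAAA, each sequence is on the plus strand, 5′ to 3′, and ends just before the start. The Mmp12 window shown is that of the second start RefSeq lists, inside the gene model of the deposited table, and the window of the other start holds neither motif.
Mmp13, chr9:7272264-7272513: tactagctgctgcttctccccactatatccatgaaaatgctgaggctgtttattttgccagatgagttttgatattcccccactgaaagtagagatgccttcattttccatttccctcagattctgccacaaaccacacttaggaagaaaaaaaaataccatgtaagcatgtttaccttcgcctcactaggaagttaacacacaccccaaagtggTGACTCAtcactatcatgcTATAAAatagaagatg
Mmp12, chr9:7347124-7347373: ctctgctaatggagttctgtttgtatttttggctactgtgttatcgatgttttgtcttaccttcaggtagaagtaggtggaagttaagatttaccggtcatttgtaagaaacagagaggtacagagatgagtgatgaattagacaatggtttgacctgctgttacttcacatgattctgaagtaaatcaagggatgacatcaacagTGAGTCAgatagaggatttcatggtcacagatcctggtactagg
Mmp3, chr9:7445572-7445821: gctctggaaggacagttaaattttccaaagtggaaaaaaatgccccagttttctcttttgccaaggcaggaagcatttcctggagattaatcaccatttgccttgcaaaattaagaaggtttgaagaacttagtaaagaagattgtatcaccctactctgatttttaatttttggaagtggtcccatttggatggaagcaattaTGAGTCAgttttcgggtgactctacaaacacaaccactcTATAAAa
The heptamer begins 35 bases before the start in Mmp13, 44 in Mmp12 and 46 in Mmp3. These distances are counted from RefSeq's starts, and TATAAA begins 16 bases before that of Mmp13 and 7 before that of Mmp3. Of these genes Mmp12 fell, Mmp13 did not pass and Mmp3 changed direction with the scaling. A match says only that these letters are there, and the part of the heptamer in these values was not tested. A further motif, CAGACA, which is part of the box bound by SMAD3 and SMAD4, was in 17.1% of all windows on either strand and in 5 of the 37 member windows, those of Adamtsl5, Mmp7, Mmp8, Mmp10 and Mmp20.

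Among the ADAMTS genes 4 rose, 7 fell and 6 did not pass of 17 tested. Adamts1, whose enzyme cuts versican and aggrecan, was the most abundant, at 53.5, 51.7 and 55.4 TMM-scaled FPKM in WT and 45.2, 45.5 and 45.2 in the labelled knockouts. On the TMM scale it fell by 0.24 (edgeR adjusted p = 8.64e-05), and it turns to a rise with library totals (0.17, adjusted p = 0.000408). Adamts5, an aggrecanase gene that lies 53.1 kb from Adamts1 on chromosome 16, rose on either scale, from 3.38, 2.98 and 2.89 to 3.85, 3.69 and 4.04 (0.32, SE 0.0689, edgeR adjusted p = 0.00532; 0.73 with library totals). The ratio of Adamts5 to Adamts1, free of scaling, was 0.0577 ± 0.00545 in WT and 0.0851 ± 0.00415 in the labelled knockouts, without overlap.

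Adamts8 and Adamts15, a pair of neighbours 20.1 kb apart on chromosome 9, both fell. Adamts8, which encodes a secreted protease that is also strongly expressed in lung, stood at 16.4, 15.2 and 14.3 in WT and at 4.76, 5 and 5.35 in the labelled knockouts. All labelled knockouts lay far below all wild type libraries. Its fall was 3.03-fold (-1.60, SE 0.0658, edgeR adjusted p = 1.9e-08), and an antisense gene, Gm29724, overlaps 10.6% of its exon bases. Of 5 lung marker genes 4 fell and 1 did not pass, with a summed level of 11.3 to 14.2 in WT and 1.43 to 2.05 in the labelled knockouts, and their part in the fall of Adamts8 was not tested. Adamts15, another hyalectan-cutting enzyme, went from 3.15, 2.94 and 2.85 to 1.73, 1.64 and 1.6 (-0.84, SE 0.0699, edgeR adjusted p = 6.08e-06). Their ratio, Adamts8 over Adamts15, was 5.13 ± 0.0988 in WT and 3.05 ± 0.305 in the labelled knockouts, without overlap. Adamts4, an aggrecanase induced in inflammation, fell from 1.12, 1.58 and 1.29 to 0.712, 0.818 and 0.782 (-0.79, edgeR adjusted p = 0.0053), and kept its direction but not its call with library totals (-0.38, adjusted p = 0.086; 1.43e-05 to 0.125 over 18 alternatives). Adamts9, a versican-cutting enzyme, stood at 1.38, 1.58 and 1.71 in WT and 1.68, 1.77 and 1.55 in the labelled knockouts and did not pass on the TMM scale (edgeR adjusted p = 0.459), though it did upward with library totals (0.51, adjusted p = 0.000568; 0.000568 to 0.864 over 18 alternatives). Of the 7 hyalectan-cutting enzymes, 4 thus fell and 1 rose (71.4% called, against 24.7% of all tested genes). With library totals 2 fell and 3 rose, where 3.81% of all tested genes were lower and 46.8% higher.

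The procollagen N-proteinases, which remove the amino-terminal propeptide so that collagen can form fibrils, differed in direction. Adamts14 went from 2.34, 2.38 and 2.27 in wild type to 0.966, 0.928 and 0.877 in the labelled knockouts. Every labelled knockout lay below every wild type library, and the gene fell 2.52-fold (-1.33, SE 0.111, edgeR adjusted p = 6.43e-06). Adamts2, the main enzyme of this kind in most tissues, went from 23.9, 22.8 and 21.96 to 25.7, 25.7 and 24.5. It rose by 0.14 (SE 0.0349, edgeR adjusted p = 0.0112), and missed the threshold without labelled knockout 2 (0.14, adjusted p = 0.0503; 2.87e-07 to 0.0503 over 18 alternatives). The ratio of Adamts2 to Adamts14 was 9.82 ± 0.348 in WT and 27.4 ± 0.709 in the labelled knockouts. Adamts3 was tested and did not pass (edgeR adjusted p = 0.469). Of the enzymes that cut COMP, a cartilage and tendon matrix protein, Adamts12 fell from 0.85, 0.821 and 0.896 to 0.427, 0.383 and 0.479 (-0.99, SE 0.133, edgeR adjusted p = 0.000247). Adamts7 stood at 0.634, 0.227 and 0.328 in WT and 0.791, 0.648 and 0.596 in the labelled knockouts, with wild type 1 above the lowest labelled knockout, and did not pass (0.77, edgeR adjusted p = 0.109). Adamts7 passed upward in 7 of 17 alternatives, among them library totals (1.18, adjusted p = 0.0096), DESeq2 (adjusted p = 0.024) and edgeR without wild type 1 (1.28, adjusted p = 0.00543; 0.00543 to 0.289 over the 17).

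Adamts10 and Adamts6, a homologous pair of which the former binds fibrillin microfibrils, both rose. Adamts10 went from 9.13, 9.69 and 9.5 TMM-scaled FPKM in wild type to 16.6, 16.5 and 17.4 in the labelled knockouts, 1.78-fold (0.83, SE 0.0383, edgeR adjusted p = 4.69e-08). Its share of all Adamts FPKM went from 8.2% to 16.1%, against 13.3% to 4.81% for Adamts8. Adamts6 went from 1.17, 1.12 and 0.933 to 1.78, 2.02 and 1.66 (0.76, SE 0.121, edgeR adjusted p = 0.00085), without overlap. Adamts19 was called lower at very low level, from 44, 51 and 76 counts in wild type to 18, 17 and 4 in the labelled knockouts (-2.61, SE 0.636, edgeR adjusted p = 0.0116), which is 1 to about 19 read pairs a library. Limma on log2(FPKM + 1) and + 0.1 did not call it (adjusted p of 0.166 and 0.0792; 4.72e-05 to 0.166 over 17 alternatives). Adamts13, whose enzyme cuts von Willebrand factor and is made chiefly in liver, had 4 counts in wild type 2 and 0 in the other libraries, and Adamts16 at most 21 counts, and neither was tested. The 8 low members that were tested but are not given by library (Mmp20, Mmp21, Mmp24, Mmp27, Adamts3, Adamts17, Adamts18 and Adamts20) had 0 to 193 counts and 0 passed by edgeR (adjusted p of 0.235 to 0.925, 0 of the 8 under an unadjusted p of 0.05, and 0 by DESeq2).

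All 5 ADAMTS-like genes rose, on the TMM scale and with library totals, and in no other family were all tested genes called one way. Adamtsl2, whose product binds fibrillin-1 and latent TGF-beta binding protein, stood at 1.67, 1.56 and 1.9 in WT and 6.1, 5.69 and 5.65 in the labelled knockouts. Every labelled knockout lay far above every wild type library, and Adamtsl2 rose 3.39-fold (1.76, SE 0.0799, edgeR adjusted p = 4.25e-08; chromosome 2 from 27079379 to 27108981). Adamtsl1, named punctin, went from 1.32, 1.23 and 1.25 to 2.12, 2.13 and 2.18 (0.76, SE 0.0672, edgeR adjusted p = 9.97e-06). Adamtsl5, the most abundant of the family, went from 14.8, 14.04 and 14.1 to 19.2, 19.5 and 19.2 (0.43, SE 0.0389, edgeR adjusted p = 1.18e-05). Adamtsl3 went from 4.21, 4.02 and 3.7 to 5.38, 5.2 and 4.94 (0.38, edgeR adjusted p = 0.00129). Adamtsl4, a fibrillin-binding protein of the eye's suspensory fibres, went from 4.92, 4.83 and 4.69 to 5.71, 5.57 and 5.36 without overlap (0.21, edgeR adjusted p = 0.0457), and this call was lost without any 1 of the 6 libraries (edgeR adjusted p of 0.0586 to 0.145; 2.06e-05 to 0.145 over 18 alternatives). The summed level of the 5 genes was 26.1 ± 0.716 in WT and 38.0 ± 0.586 in the labelled knockouts (SD, n = 3 each), with a log2 ratio of 0.54 on the TMM scale and 0.95 on the authors' FPKM scale. By contrast the sums of the Mmp genes (log2 ratio -0.37) and of the Adamts genes (-0.14) were lower on the TMM scale and turn upward on the authors' FPKM scale (0.04 and 0.27). Within the family Adamtsl2 went from 6.56% to 15.3% of the summed FPKM and moved from the fourth to the second place.

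**Figure D4:**
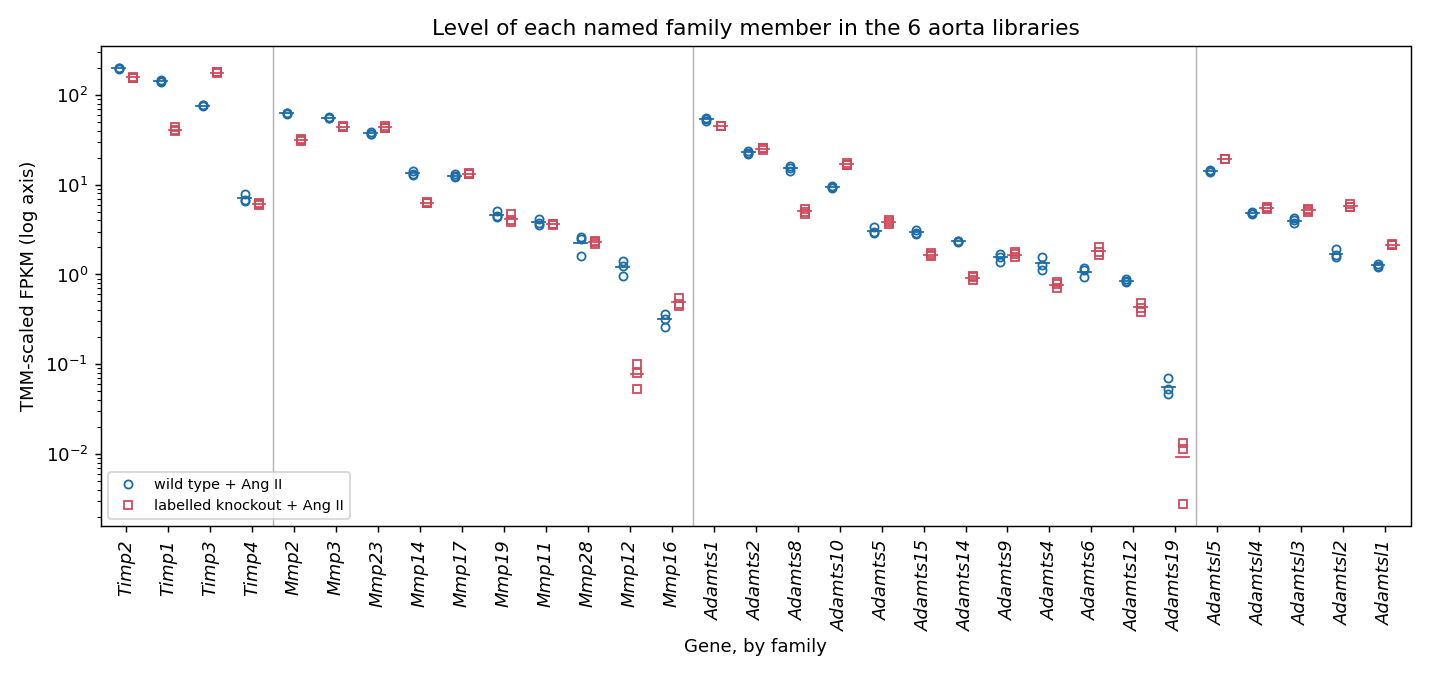
Level of the 31 named members in each library (TMM-scaled FPKM, log axis; circles wild type, squares labelled knockout, lines the means of 3 libraries), by family and ordered by wild type level. Groups are apart for Timp1, Timp3, Mmp2, Mmp14, Mmp12 and Adamtsl2 and overlap for Mmp19, Mmp28, Mmp11, Mmp17 and Adamts9.

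The plot of fold changes sets both scalings side by side. Of the 26 called members, 17 kept their direction and their call in every one of the 18 alternatives that gave them a value (9 higher, 8 lower), where 2 of the 17, Mmp12 and Adamts12, had a value in 17. The 9 that rose were Timp3, Mmp23, Adamts5, Adamts6, Adamts10, Adamtsl1, Adamtsl2, Adamtsl3 and Adamtsl5. The 8 that fell were Timp1, Mmp2, Mmp12, Mmp14, Adamts8, Adamts12, Adamts14 and Adamts15. The 4 whose direction turned in an alternative were Timp2, Timp4, Mmp3 and Adamts1.

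**Figure D5:**
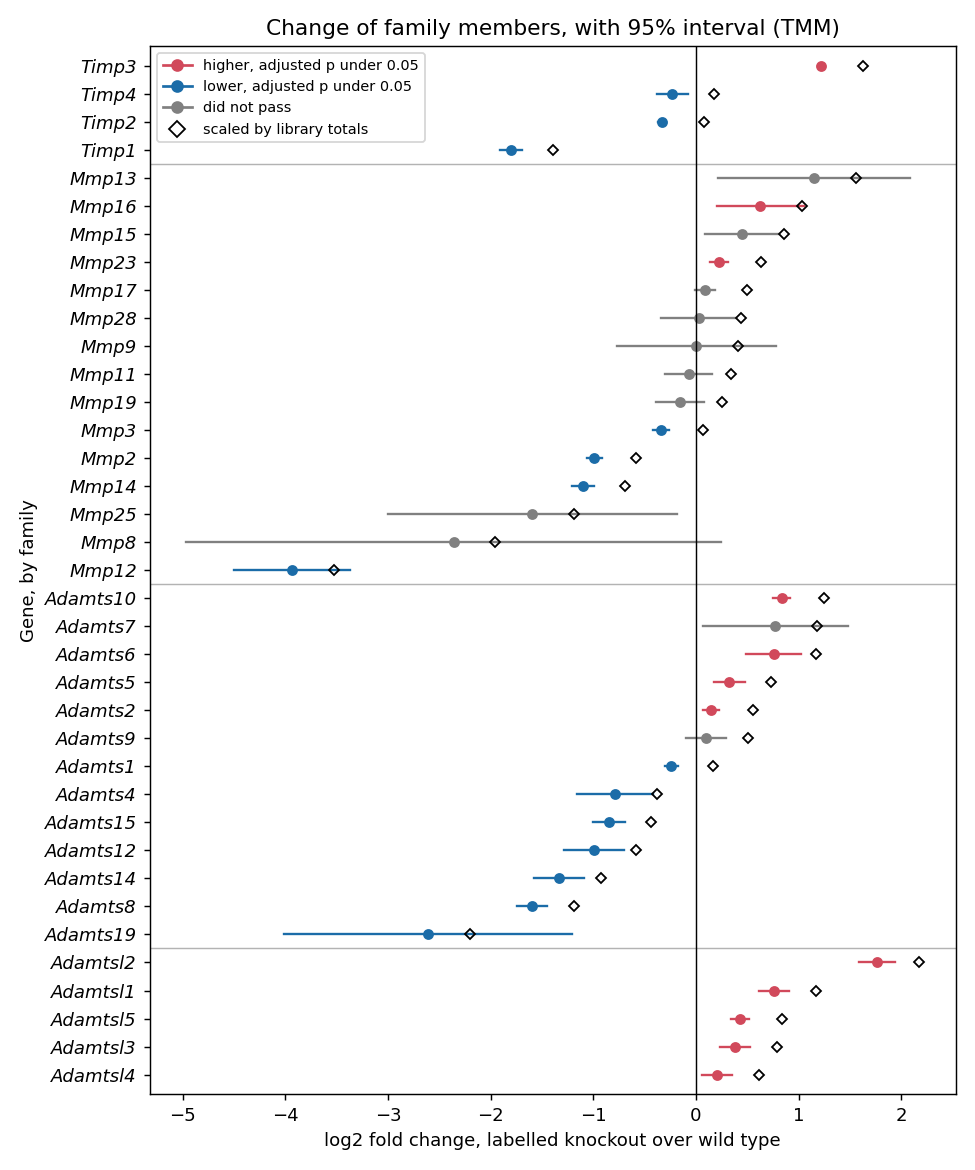
log2 fold change of labelled knockout over wild type (x axis) of the 37 members given by library, with the 95% interval on the TMM scale (coloured circles and bars) and the value with library totals (open diamonds). Diamonds lie about 0.41 to the right of the circles, which takes the called members Timp2, Timp4, Mmp3 and Adamts1, and also Mmp11 and Mmp19, across 0.

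Genes that activate, restrain or are cut by these enzymes were read from the same fit. Their lists were chosen for their roles, with earlier results of these data known. Over all tested genes 13.2% rose and 11.5% fell (46.8% and 3.81% with library totals). Of genes with a mean deposited FPKM of at least 1, 19.4% rose and 15.5% fell. Of 11 genes for activating proteases and related factors, 2 rose, 5 fell and 4 did not pass, with a median log2 fold change of -0.10 (0.31 with library totals, 6 higher and 2 lower). Plau, the urokinase that makes plasmin, an activator of Mmp precursors, stood at 8.19, 10.03 and 8.54 in WT and 2.67, 2.56 and 2.76 in the labelled knockouts and fell by 1.74 (edgeR adjusted p = 4.2e-07). Its receptor gene Plaur fell by 0.76 (edgeR adjusted p = 0.000135), while Pcsk6, a proprotein convertase, rose by 0.99 (edgeR adjusted p = 1.3e-06). Pcsk7 rose by 0.31, and Pcsk5 was -0.23 but turns with library totals (0.18). Of 15 other inhibitors and clearance factors, 14 were tested, and 7 rose, 2 fell and 5 did not pass, with a median of 0.27 (0.68 with library totals, 9 higher and 0 lower). Reck, a membrane-anchored inhibitor of MMP2, MMP9 and MMP14, rose from 11.4, 11.4 and 11.5 to 18.4, 18.3 and 19.1 (0.70, edgeR adjusted p = 2.31e-07). Spock2, a proteoglycan of the testican family, rose by 1.20 and Cst3, the cysteine protease inhibitor cystatin C, by 0.45. Serpine2, an inhibitor of thrombin, was -0.18 and turns with library totals (0.23).

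Of 16 related metalloproteinases of the ADAM, tolloid and meprin families, 14 were tested, with 4 higher, 6 lower, 4 not passing and a median of -0.13 (0.28 with library totals, 9 higher and 2 lower). Adam8, a protease of myeloid cells, went from 2.05, 2.09 and 1.99 to 0.251, 0.305 and 0.396 (-2.67, edgeR adjusted p = 1.4e-06), and Adam12 fell by 1.59. Tll1, a tolloid-like procollagen C-proteinase, rose from 0.112, 0.1 and 0.132 to 0.804, 0.983 and 0.818 (2.91, edgeR adjusted p = 1.06e-06), and Adam33, a gene of smooth muscle and fibroblasts, rose by 0.85. Bmp1, the main procollagen C-proteinase, was -0.14 and turns with library totals (0.27). Of 15 proteoglycans and other substrates, 14 were tested, 5 rose, 5 fell and 4 did not pass, with a median of 0.0076 (0.42 with library totals, 9 higher and 3 lower). Spp1, the secreted phosphoprotein osteopontin, fell by 4.65, and Thbs1, the matricellular protein thrombospondin-1, by 2.33. Acan, the aggrecan core protein, fell by 0.88 (edgeR adjusted p = 1.81e-07), while Vcan, the versican core protein, stood at 5.1, 4.89 and 4.89 in WT and 4.95, 5.16 and 5.06 in the labelled knockouts and did not pass (0.03, edgeR adjusted p = 0.668). Comp, the substrate of Adamts7 and Adamts12, rose by 0.49, Vwf, the substrate of Adamts13, by 1.10, and Fmod, a collagen-binding proteoglycan, by 1.84.

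All 19 fibrillar and basement membrane genes were tested, and 16 fell, 2 rose and 1 did not pass, with a median of -0.49 (-0.08 with library totals, 7 higher and 10 lower). Over all tested genes 24.7% passed, and 34.8% of those with a mean deposited FPKM of at least 1. Eln, the elastin that MMP12 cuts, stood at 1063, 1069 and 1077 in WT and 463, 463 and 467 in the labelled knockouts and fell by 1.20 (edgeR adjusted p = 1.94e-16). Transcripts of Col1a1 and Col3a1, the main fibrillar collagens of the vessel, fell by 0.87 and 0.82, that of Fn1, fibronectin, by 0.75, and that of Col4a1, a basement membrane collagen that gelatinases cut, by 0.67. Fbn1, the fibrillin that ADAMTS-like proteins bind, was -0.49 on the TMM scale (edgeR adjusted p = 1.33e-08) but only -0.08 with library totals. All 5 ADAMTS-like genes rose on either scale, though the call of Adamtsl4 was lost when any library was left out. A link between Fbn1 and these genes was not tested.

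Marker genes of the cell types that an aorta can hold were read in the same way. For every marker list, those given above included, the background is all tested genes. Of these 13.2% rose and 11.5% fell (46.8% and 3.81% with library totals). Smooth muscle markers had the highest summed level of all marker lists, 6898 to 6959 in WT and 6400.0 to 6424 in the labelled knockouts, with 5 higher, 3 lower and 2 not passing of 10 (9 higher and 0 lower with library totals). Endothelial markers rose in 8 of 10 genes and fell in 1, with sums of 89.8 to 91.02 in WT and 125 to 127 in the labelled knockouts. Adventitial fibroblast markers split into 5 higher and 5 lower on the TMM scale (7 and 1 with library totals), with sums of 739.5 to 759 and 725 to 737. The labels' protocol speaks of an adipose type where the tissue label says aorta, and white adipocyte markers rose in 4 of 7 genes, with sums of 105 to 106 in WT and 175 to 185 in the labelled knockouts. All 6 markers of cycling cells fell, with sums of 9.13 to 11.2 and 2.16 to 2.32. Of the other lists, 1 of 8 lymphocyte and 2 of 4 tested brown adipocyte markers rose, and 2 of 7 cartilage, 3 of 8 striated muscle and 1 of 4 kidney markers fell. Kidney sums were 9.64 to 10.4 in WT and 0.253 to 0.436 in the labelled knockouts. Yet 3 of the 4 tested kidney markers did not pass, and the median log2 fold change was 0.57. With library totals that median was 0.975, with 1 higher and 1 lower, so the kidney sum does not speak for the list. Cartilage sums were 15.2 to 16.3 in WT and 9.24 to 9.64 in the labelled knockouts. Most of each sum was Acan, given above among the substrates, with means of 14.03 and 7.6. The median log2 fold change of the 7 tested cartilage markers was 0.42 (0.83 with library totals, 3 higher and 2 lower). The cartilage sum thus does not speak for the list. Striated muscle sums were 4.21 to 4.76 in WT and 1.96 to 2.83 in the labelled knockouts. Brown adipocyte sums were 18 to 20.2 in WT and 33.5 to 37.5 in the labelled knockouts. Much of them was 1 gene, Dio2, with a mean of 18.5 over the 6 libraries and a log2 fold change of 1.06. The median log2 fold change of the 4 tested brown adipocyte markers was 0.33 (0.74 with library totals). The part of these cell types in the changes of the protease and inhibitor genes was not tested.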

How the data were processed

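Mouse aorta RNA in 6 libraries was sequenced as paired ends on a NovaSeq after poly(A) selection, per the labels' protocols. Tools listed without a role or order are HISAT2 2.0 and Bowtie 0.12.2, with mm8 as the build, per the submitters' processing notes. Coordinates in the deposited table match GRCm38 gene models. The counting tool, annotation, strand setting and filters were not given in the sources used here. Each gene has, per the file headers, a deposited expected count and an FPKM value in every library, and 0 of its per-sample columns lack a sample. The deposited counts are whole numbers and were used unchanged. Totals were 63612353 to 75886761 per library.

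The main test was edgeR 4.0.16 (R 4.3.3), with filterByExpr, TMM scaling, a quasi-likelihood fit of labelled knockout against wild type and Benjamini-Hochberg adjustment over 20132 genes (threshold 0.05). The standard error is the absolute log2 fold change over the square root of F. TMM-scaled FPKM are the authors' deposited FPKM times the library total over the TMM effective size. Alternatives used library totals (with or without mitochondrial genes), DESeq2 size factors, DESeq2 1.42.0, limma 3.58.1 on log2(FPKM + 1) or log2(FPKM + 0.1), no filter, a mean FPKM of at least 1, counts divided by 4, a replicate block and each library left out. The 2 added after seeing the data left out mitochondrial genes with 8 nuclear copies (BLAST+ 2.17.0, at least 97% identity over 100 bases) or used limma on TMM-scaled FPKM. The edgeR and limma steps were tested on simulated data.

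The members and lists were chosen with earlier results of these data known. Named members are those tested with a mean deposited FPKM of at least 1 or an adjusted p under 0.05 (31 members), and for each pathway list up to 5 genes with the smallest p, of which 1 is not reported here. Mmp8, Mmp9, Mmp13, Mmp15, Mmp25 and Adamts7, the genes Vcan, Comp, Fbn1, Trem2, Lyz2, Cd163, S100a9 and Dio2, the promoter motifs, the shares and the ratios were chosen after values were seen. Promoters are RefSeq's, on GRCm38.p6.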

Additional observations from a re-analysis of the deposited data

How the results depend on the processing

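The choice of library scaling moved the results most. With library totals the members were 21 higher and 9 lower in place of 12 and 14, all tested genes 9425 and 768 in place of 2658 and 2323, and genes of the pathway lists 40 and 17 in place of 20 and 34. Limma on deposited FPKM, which is scaled the same way, gave 21 and 8, 9447 and 867, and 39 and 16 with a pseudocount of 1, and 21 and 9, 9330 and 866, and 39 and 16 with 0.1. Library totals without mitochondrial genes gave 4907 and 1363 for all tested genes, 22 lower pathway genes, and 17 and 13 for the members. Leaving out mitochondrial copies as well, chosen after seeing the data, gave 12 and 13 members, and limma on TMM-scaled FPKM, also chosen then, 11 and 12. With TMM or a like scaling the other alternatives left 11 to 15 members higher and 11 to 15 lower, DESeq2 with 15 of each. With only genes of a mean FPKM of at least 1, where fewer genes were tested, 13 pathway genes were higher. Leaving out 1 library at a time gave 9 to 13 members higher and 13 to 14 lower, 1966 to 2429 and 1790 to 2044 of all tested genes, and 17 to 19 and 28 to 31 pathway genes. Directions turned with library totals, limma with a pseudocount of 1 and limma with 0.1, in that order, for Timp2 (0.0776, 0.0763 and 0.0767), Timp4 (0.18, 0.16 and 0.18), Mmp3 (0.07, 0.0676 and 0.0688) and Adamts1 (0.17, 0.17 and 0.17), and for Mmp11 (0.34, 0.27 and 0.33) and Mmp19 (0.26, 0.21 and 0.25), which also turned with totals without mitochondrial genes (0.0831 and 0.0028). Mmp9, near 0, turned with DESeq2 size factors (-0.0039) and ran from -0.21 to 0.42 as libraries were left out. Mmp28 ran from -0.15, without wild type 1, to 0.15 as libraries were left out and was 0.44 with library totals. The share of counts in mitochondrial transcripts moved with the groups, and what set it was not tested. With the replicate number as a block, 12 members were higher and 13 lower, 2464 and 2096 of all tested genes, and 20 and 31 pathway genes. Same-numbered libraries showed no shared deviation (correlations of -0.00082, -0.0288 and -0.0181 over genes, against -0.0125 to 0.0308 for other pairs). Counting noise in low genes can hide a shared deviation, so these values cannot settle whether the libraries were paired. Depth limits the members under about 100 counts, such as Mmp8, Mmp25, Mmp13 and Adamts19, where a count stands for few read pairs.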
